A study of Brassica oleracea with 12 samples.

Results

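The genes of the carbon fixation map were followed through 4 groups of leaf tissue of a variegated kale, *Brassica oleracea* var. *acephala*. A gene was a member when the KEGG annotation of its row in the deposited expression table lists pathway 00710, the map of carbon fixation by photosynthetic organisms, which holds the Calvin cycle and the reactions that make and use four-carbon acids. This rule found 81 of the 45325 rows, and it uses no expression value. The cultivar 'JC007-2B' is a double haploid kale line in which chilling turns the inner leaves white, and all libraries come from it, so none of the groups is a line without the variegation trait. S1 was fully green leaf, sampled without veins. S2, the albino stage, was leaf in which the center began to whiten while the margin was still green, also sampled without veins and with the margin included. S3_S was the green margin and S3_C the white center of the same kind of leaf at the later, variegated stage. Each group has 3 libraries of poly(A) RNA. The study states independent biological replicates for the S3 libraries, while nothing says so for S1 and S2, where the spread may be technical.

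In the Calvin cycle, Rubisco adds CO2 to ribulose bisphosphate, phosphoglycerate kinase and the NADP-dependent glyceraldehyde-3-phosphate dehydrogenase reduce the product to triose phosphate, and aldolase, the bisphosphatases, transketolase, the pentose phosphate isomerase and epimerase and phosphoribulokinase rebuild the acceptor. The cycle runs in the chloroplast stroma, and its enzymes are encoded in the nucleus except for the large subunit of Rubisco. Several of its reactions are also steps of glycolysis or of the pentose phosphate pathway, for which plants keep separate plastid and cytosolic copies. Phosphoenolpyruvate carboxylase, malate dehydrogenases, malic enzymes and aminotransferases stand on the same map because they carry carbon in C4 plants. Kale is a C3 plant, in which such enzymes serve respiration, nitrogen metabolism and photorespiration.

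The members make up 21 enzymes. Of the copies, 13 belong to enzymes that only the Calvin cycle uses (the small subunit of Rubisco, NADP-dependent glyceraldehyde-3-phosphate dehydrogenase, sedoheptulose-1,7-bisphosphatase and phosphoribulokinase). A further 25 belong to enzymes shared with glycolysis, 6 to enzymes shared with the pentose phosphate pathway and 37 to the four-carbon acid enzymes. The descriptions and GO terms of the table gave a compartment for 19 members, the plastid for 13, the cytosol for 3, the peroxisome for 1 and several compartments for 2, and none for the other 62. Of all members, 70 had a mean of at least 1 FPKM over the 12 libraries and 25 a mean of at least 100 FPKM. FPKM are fragments normalized to transcript length and to the size of the library, so levels of different genes are compared per length here. No member row is annotated as the large subunit of Rubisco or as pyruvate phosphate dikinase. A pair of members (*Bo4g137140/Bo4g137150* and *Bo3g101360/Bo3g101370*) are rows in which the assembly fused neighbouring loci, and the near-identical copies of an enzyme can share reads, so the split of a level between such copies is uncertain.

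The libraries were of similar depth, at 0.902 to 1.35 times the first S1 library. This was estimated from the most common ratio of values to that library, over single-transcript genes under 0.1 FPKM in both. Only 36 to 56 genes held that ratio in each of the other libraries, so the estimate is rough. The values carry no read counts, so no counting interval can be given. The FPKM sums were 429278 to 461587. The libraries S1_1 and S3_S_1 had higher levels of Rubisco and of NADP-dependent glyceraldehyde-3-phosphate dehydrogenase than the other libraries of their groups. The antenna proteins of the photosystems, which mark green mesophyll, were present in all groups, with a summed level of 9769.9 to 11080.1 FPKM in S3_S and 1838 to 2564 FPKM in S3_C. The summed level of the 4 vein markers found of 6 looked for (*IRX1*, *IRX5*, *IRX9* and *XCP1*, genes of secondary walls and xylem) was 2.22 to 3.81 FPKM in S3_S against 10.5 to 15.5 FPKM in S3_C, without overlap. It was 7.56 to 13.1 FPKM in S1 and 7.51 to 12.8 FPKM in S2. The guard cell marker *KAT1*, 1 of 2 looked for, was at 9.69 to 14.98 FPKM in S1, 16.9 to 28.9 FPKM in S2, 22.2 to 35.0 FPKM in S3_S and 29.6 to 32.0 FPKM in S3_C, lower in every S1 library than in any other. The part of these markers in the results below was not tested. In such bulk tissue, fewer mesophyll cells and less RNA of a gene per cell cannot be told apart.

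Together the 81 members took 6.88, 2.95 and 3.18% of the FPKM sum in the 3 S1 libraries, 1.71, 1.499 and 1.97% in S2, 5.05, 2.94 and 3.26% in S3_S and 1.39, 1.28 and 1.25% in S3_C. Every green library was above every whitened library. The 5 copies of the small subunit of Rubisco made up 44.3 to 53.3% of the members' sum in S1 but 13.8 to 18.2% in S3_C. Without them, the other 76 members summed to 9328 ± 1399.6 FPKM in S3_S (mean ± SD of 3 libraries) and to 4785 ± 142 FPKM in S3_C, 1.95 times higher in the margin.

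**Figure D1:**
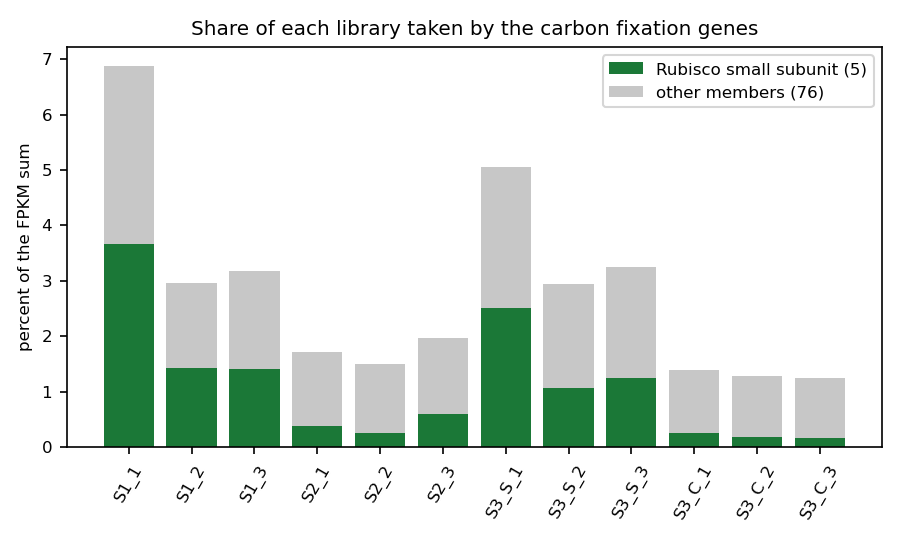
Percent of the FPKM sum of each of the 12 libraries taken by the 5 copies of the small subunit of Rubisco (green) and the other 76 members (grey). The green groups S1 and S3_S reach 2.94% to 6.88% and the whitened groups S2 and S3_C 1.25% to 1.97%, and the first library stands highest in both S1 and S3_S.

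The green margin was first set against the white center of the variegated leaf. A gene was called when its unadjusted p in limma was under 0.05 and its log2 fold change past 1 in either direction, the threshold of the study, and all fold changes below are on the log2(FPKM + 1) scale, which understates the change of low genes. Of the 78 members tested, 26 were called higher in S3_S and 7 lower, where 2.67% of all 42625 genes tested were called higher and 5.20% lower. With Benjamini-Hochberg adjusted p under 0.05 over all genes, 19 members were higher and 2 lower, against 1.41% and 2.34% of all genes. The libraries of the tissues did not overlap for 30 members higher in S3_S and 24 lower, against 6.35% and 24.4% of all genes. By role of the enzyme, the counts were unequal. Of the 13 copies of enzymes that only the Calvin cycle uses, 10 were called higher and none lower, with a median log2 fold change of 2.68. Of the 25 copies shared with glycolysis, 8 were higher and 3 lower (median -0.25). Of 6 copies shared with the pentose phosphate pathway, 2 were higher (median 0.61). Of the 34 four-carbon acid copies tested, 6 were higher and 4 lower (median -0.26). The median over all members was 0.00, beside -0.14 over all genes tested. Of the 13 members with a plastid description, 6 were called higher and none lower, and none of the 3 described as cytosolic was called.

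**Figure D2:**
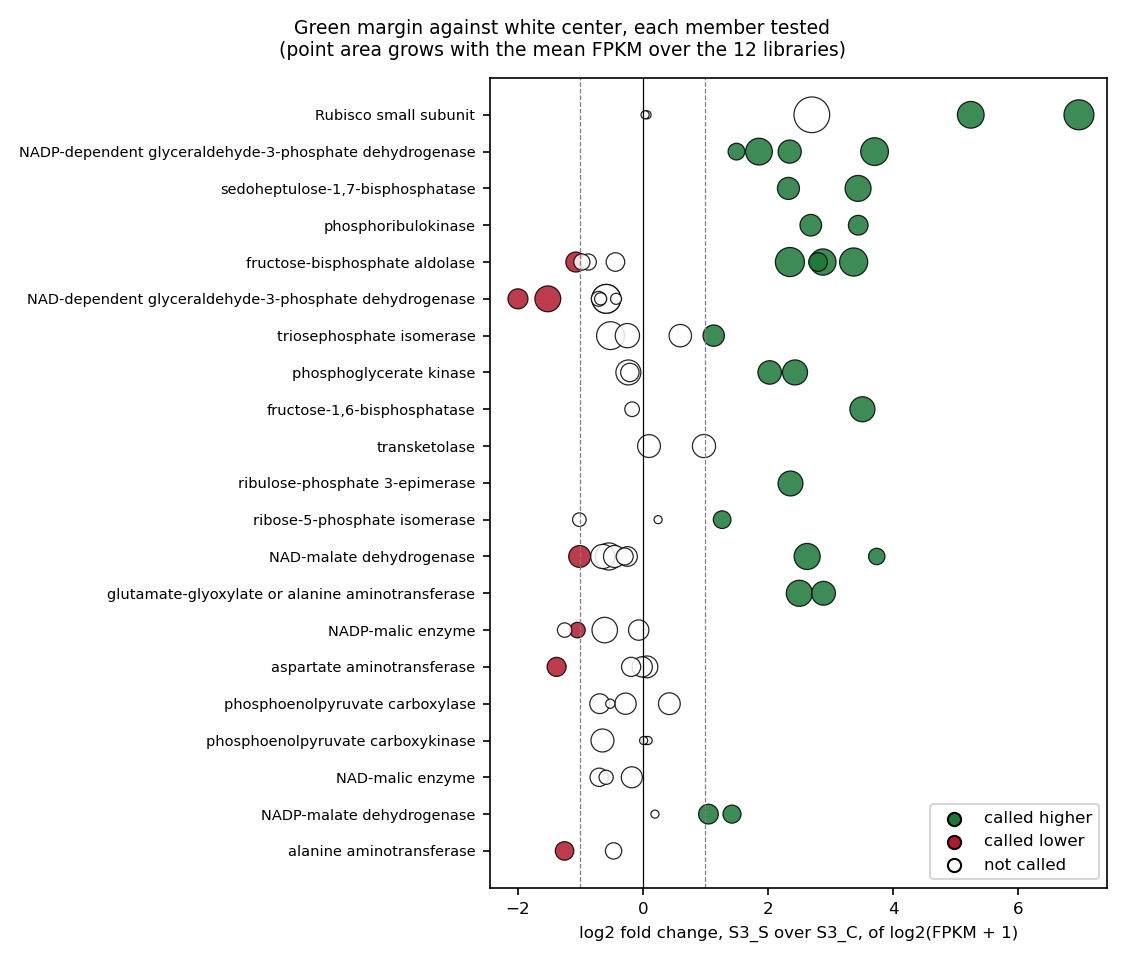
Log2 fold change of S3_S over S3_C for each of the 78 members tested, one line for each enzyme, with a point area that grows with the mean FPKM over the 12 libraries. Green points are the 26 members called higher in the margin, red points the 7 called lower, white points those not called, and the dashed lines mark a log2 fold change of 1 in either direction.

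Of these calls, 24 of the 26 higher and 4 of the 7 lower were made again whichever single library was left out. The adjusted p depends on single libraries. No member passed 0.05 without S3_S_2, S3_S_3, S3_C_1 or S3_C_2, where 7, 3, 2 and 1 of all genes did. Members that passed were 11 without S3_C_3 and 15 without S3_S_1, against 21 with all libraries. Of all genes, 805, 639 and 1598 passed in these fits, so the loss was not confined to the members. With the replicate number as a block, 26 members were higher and 8 lower, and 14 had an adjusted p under 0.05, beside 0.924% of all genes. After median-of-ratios scaling, which moves the median of the expressed genes from -0.32 to 0.00, 27 members were higher and 3 lower, beside 4.23% and 2.18% of all genes. In the linear model with the library-size covariate of Ballgown, 1 member was called higher and 3 lower, beside 1.40% and 1.02% of all genes. That covariate was higher in every S3_C than in every S3_S library.

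Rubisco is the carboxylating enzyme, and its small subunit is encoded by a nuclear gene family. The copy with the highest level of all members, *Bo4g137200*, was at 11157, 5552 and 5186 FPKM in S1, 1497, 1007 and 2313 FPKM in S2, 8429, 4247 and 4837 FPKM in S3_S and 1087, 774 and 746 FPKM in S3_C. The margin libraries lay far above the center libraries, and the log2 fold change of 2.70 (SE 1.70, adjusted p = 0.377) still missed the threshold. When the fit held only genes whose mean was 1 FPKM or more, the same difference was called with an adjusted p of 0.00918. It was also called with a pseudocount of 0.1 and in the linear model without a covariate, but not under median-of-ratios scaling, quantile normalization or the replicate block. The fused row *Bo4g137140/Bo4g137150* was at 3598, 513 and 776 FPKM in S1, 131, 116 and 227 FPKM in S2, 1962, 374 and 650.3 FPKM in S3_S and 8.18, 7.19 and 2.24 FPKM in S3_C. It had the largest rise of all members in the margin, with a log2 fold change of 6.97 (SE 0.70, adjusted p = 0.0203). *Bo6g059930* followed with 416, 57.9 and 46.2 FPKM in S3_S against 2.17, 3.25 and 0.589 FPKM in S3_C, a log2 fold change of 5.24 (SE 0.89, adjusted p = 0.0405). The remaining copies, *Bo2g055360* and *Bo2g055370*, did not exceed 0.250 FPKM in any library. *Bo4g137200* carried 98.7 to 99.6% of the summed level in S3_C, 78.0 to 90.8% in S3_S and 67.9 to 87.0% in S1, and its share was higher in every center than in any margin library.

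A further 2 rows are described as Rubisco small chains but carry no KEGG pathway and stand outside the rule. One of them, *Bo4g144000*, was looked at after its values were seen. It was at 5130.1, 932 and 1484 FPKM in S1, 214, 198 and 388 FPKM in S2, 2371, 447 and 493 FPKM in S3_S and 53.8, 60.9 and 22.0 FPKM in S3_C, a log2 fold change of 4.24 between margin and center (adjusted p = 0.0459). The other, *Bo2g055400*, was listed above 0 in 2 libraries only, at no more than 0.125 FPKM.

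The reduction step separated the copies of glyceraldehyde-3-phosphate dehydrogenase by their cofactor. All 4 copies of the NADP-dependent form, the chloroplast enzyme, were called higher in S3_S. *Bo8g024290*, projected from *GAPB* (*AT1G42970*) of *Arabidopsis*, was at 865, 362 and 425 FPKM in S3_S and 50.7, 35.3 and 31.3 FPKM in S3_C, a log2 fold change of 3.70 (SE 0.40, adjusted p = 0.0226). *Bo5g016460* was at 560.3, 246 and 175 FPKM against 93.0, 76.8 and 69.2 FPKM, a log2 fold change of 1.86 (SE 0.46, adjusted p = 0.0774). The remaining pair, *Bo8g107880* and *Bo7g083800*, had log2 fold changes of 2.35 and 1.497. The NAD-dependent form is the enzyme of glycolysis. Its 7 copies all lay lower in S3_S than in S3_C without overlap, as did 24.4% of all genes. The median log2 fold change of the expressed genes was -0.32 in this comparison. Of the 7 copies, 2 passed the threshold. *Bo5g148380* was at 101, 72.6 and 80.9 FPKM in S3_S and 230.1, 261 and 237 FPKM in S3_C, a log2 fold change of -1.52 (SE 0.22, adjusted p = 0.0310). *Bo3g057250* was at 15.8, 5.84 and 5.58 FPKM and 42.0, 53.8 and 19.2 FPKM, a log2 fold change of -1.99 (SE 0.52, adjusted p = 0.0849). The most abundant NAD-dependent copies, *Bo5g017500* and *Bo8g065470*, had log2 fold changes of -0.58 and -0.58 and were not called. The ratio of the summed NADP-dependent to the summed NAD-dependent level, which no scaling of a library can change, was 2.05, 1.12 and 1.13 in S3_S and 0.144, 0.117 and 0.114 in S3_C. It was 1.59, 0.465 and 0.513 in S1 and 0.138, 0.116 and 0.339 in S2. The ratio was above 1 in every margin library and in S1_1 only of the others.

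**Figure D3:**
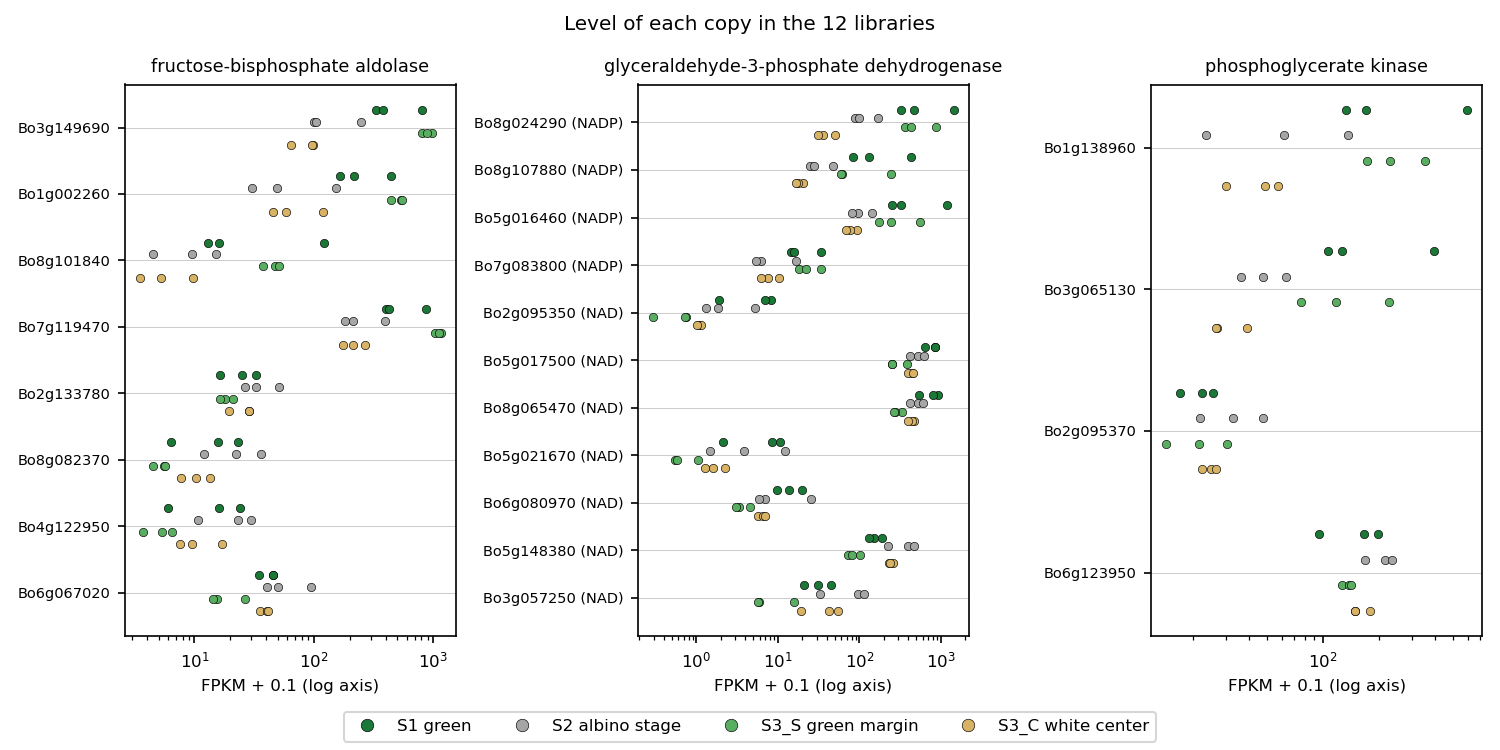
Level (FPKM + 0.1, log axis) of each copy of fructose-bisphosphate aldolase (8), of the NADP- and NAD-dependent glyceraldehyde-3-phosphate dehydrogenases (4 and 7) and of phosphoglycerate kinase (4), with one point for each of the 12 libraries, coloured by group. Copies are ordered by their log2 fold change of S3_S over S3_C within each enzyme, and the copies called higher lie further right in S3_S than in S3_C.

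Fructose-bisphosphate aldolase joins triose phosphates to hexose and heptulose bisphosphates, in the plastid for the cycle and in the cytosol for sugar breakdown and synthesis. Its 8 copies split into 4 called higher in S3_S and 4 with log2 fold changes below 0. *Bo7g119470* was at 1158, 1035 and 1119 FPKM in S3_S and 213, 175 and 268 FPKM in S3_C, a log2 fold change of 2.35 (SE 0.46, adjusted p = 0.0519). *Bo3g149690*, described as a plastid aldolase (projected from *AT4G38970*), was at 974, 812 and 883 FPKM against 97.8, 64.6 and 96.9 FPKM, a log2 fold change of 3.37 (SE 0.33, adjusted p = 0.0193). *Bo1g002260* had a log2 fold change of 2.88 and the other copy described as a plastid enzyme, *Bo8g101840* (projected from *AT2G21330*), one of 2.80. *Bo6g067020*, projected from *AT3G52930*, which encodes a cytosolic aldolase in *Arabidopsis*, went the other way. It was at 26.4, 15.4 and 14.3 FPKM in S3_S and 35.2, 40.8 and 41.1 FPKM in S3_C, a log2 fold change of -1.07 (SE 0.25, adjusted p = 0.0698), and it was not called after median-of-ratios scaling or without S3_S_2 or S3_S_3. *Bo2g133780*, *Bo8g082370* and *Bo4g122950* were between -0.97 and -0.44 and not called. The 4 copies called higher, which the comparison itself selected, carried 97.9 to 98.5% of the aldolase level in S3_S and 74.5 to 85.4% in S3_C.

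Phosphoglycerate kinase and triosephosphate isomerase, which also serve both the cycle and glycolysis, had copies called higher and none called lower. *Bo1g138960* was at 354, 173 and 228 FPKM in S3_S and 57.3, 29.97 and 48.9 FPKM in S3_C. This copy had a log2 fold change of 2.43 (SE 0.37, adjusted p = 0.0332). *Bo3g065130*, projected from the plastid kinase *AT3G12780*, had a log2 fold change of 2.03 (SE 0.42, adjusted p = 0.0573). The kinases *Bo6g123950* and *Bo2g095370* were at -0.23 and -0.21, with 126, 138 and 141 FPKM of *Bo6g123950* in S3_S and 149, 179 and 148 FPKM in S3_C. One of the 4 isomerase copies, *Bo4g145780*, rose, from 35.7, 30.1 and 32.8 FPKM in S3_C to 94.5, 59.98 and 69.2 FPKM in S3_S, a log2 fold change of 1.13 (SE 0.20, adjusted p = 0.0449) that stayed below 1 without S3_S_1. The most abundant isomerase, *Bo4g116720*, was at 297, 259.8 and 314 FPKM in S3_S and 439.7, 450.3 and 359 FPKM in S3_C and was not called (log2 fold change -0.52). Nor were *Bo4g116710* (-0.25) and *Bo8g101980* (0.60).

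The regenerating enzymes that are particular to the cycle were higher in the margin in each of their copies. Sedoheptulose-1,7-bisphosphatase commits carbon to the rebuilding of the acceptor. Its copy *Bo8g090220* was at 467, 328 and 427 FPKM in S3_S and 47.0, 27.5 and 36.7 FPKM in S3_C, a log2 fold change of 3.44 (SE 0.27, adjusted p = 0.0140), and *Bo4g115460* changed by 2.33 (SE 0.28, adjusted p = 0.0237). Phosphoribulokinase makes ribulose bisphosphate in the last step. *Bo8g030240* was at 102, 57.7 and 50.9 FPKM against 8.27, 3.31 and 5.12 FPKM, a log2 fold change of 3.44 (SE 0.37, adjusted p = 0.0226), and *Bo5g048540* changed by 2.68 (SE 0.32, adjusted p = 0.0237). Fructose-1,6-bisphosphatase had an unequal pair of copies. *Bo8g083330* was at 374, 245 and 352 FPKM in S3_S and 28.9, 14.3 and 47.0 FPKM in S3_C, a log2 fold change of 3.51 (SE 0.45, adjusted p = 0.0256). The fused row *Bo3g101360/Bo3g101370*, described as a plastid enzyme, was at 7.28, 8.41 and 9.69 FPKM and 8.83, 7.96 and 12.5 FPKM, with overlapping libraries and a log2 fold change of -0.17.

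The enzymes that exchange carbon with the pentose phosphate pathway were less uniform. The single copy of ribulose-phosphate 3-epimerase, *Bo7g098580*, was at 309, 234 and 289 FPKM in S3_S and 59.1, 39.6 and 65.0 FPKM in S3_C, a log2 fold change of 2.35 (SE 0.26, adjusted p = 0.0230). Ribose-5-phosphate isomerase *Bo7g067590* was at 32.5, 23.8 and 26.1 FPKM and 10.8, 9.76 and 11.7 FPKM, a log2 fold change of 1.27 (SE 0.16, adjusted p = 0.0245). Transketolase, which moves glycolaldehyde units between sugars, was not called in either copy. *Bo4g104820* was at 109.5, 74.8 and 60.6 FPKM in S3_S and 38.6, 35.6 and 45.6 FPKM in S3_C, without overlap, and its log2 fold change of 0.98 (SE 0.25, adjusted p = 0.0821) lay just under 1. It was called after median-of-ratios scaling, at 1.36. *Bo8g095470* was at 102, 52.1 and 61.8 FPKM and 71.1, 60.5 and 61.8 FPKM, and its libraries overlapped (log2 fold change 0.10, SE 0.27). The isomerase *Bo5g146980* was listed at 64.9 FPKM in S1_3 and 7.22 FPKM in S3_C_1 and at 0 in the other 10 libraries, and *Bo7g078170* at 0.663 FPKM in S3_S_3 alone.

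**Figure D4:**
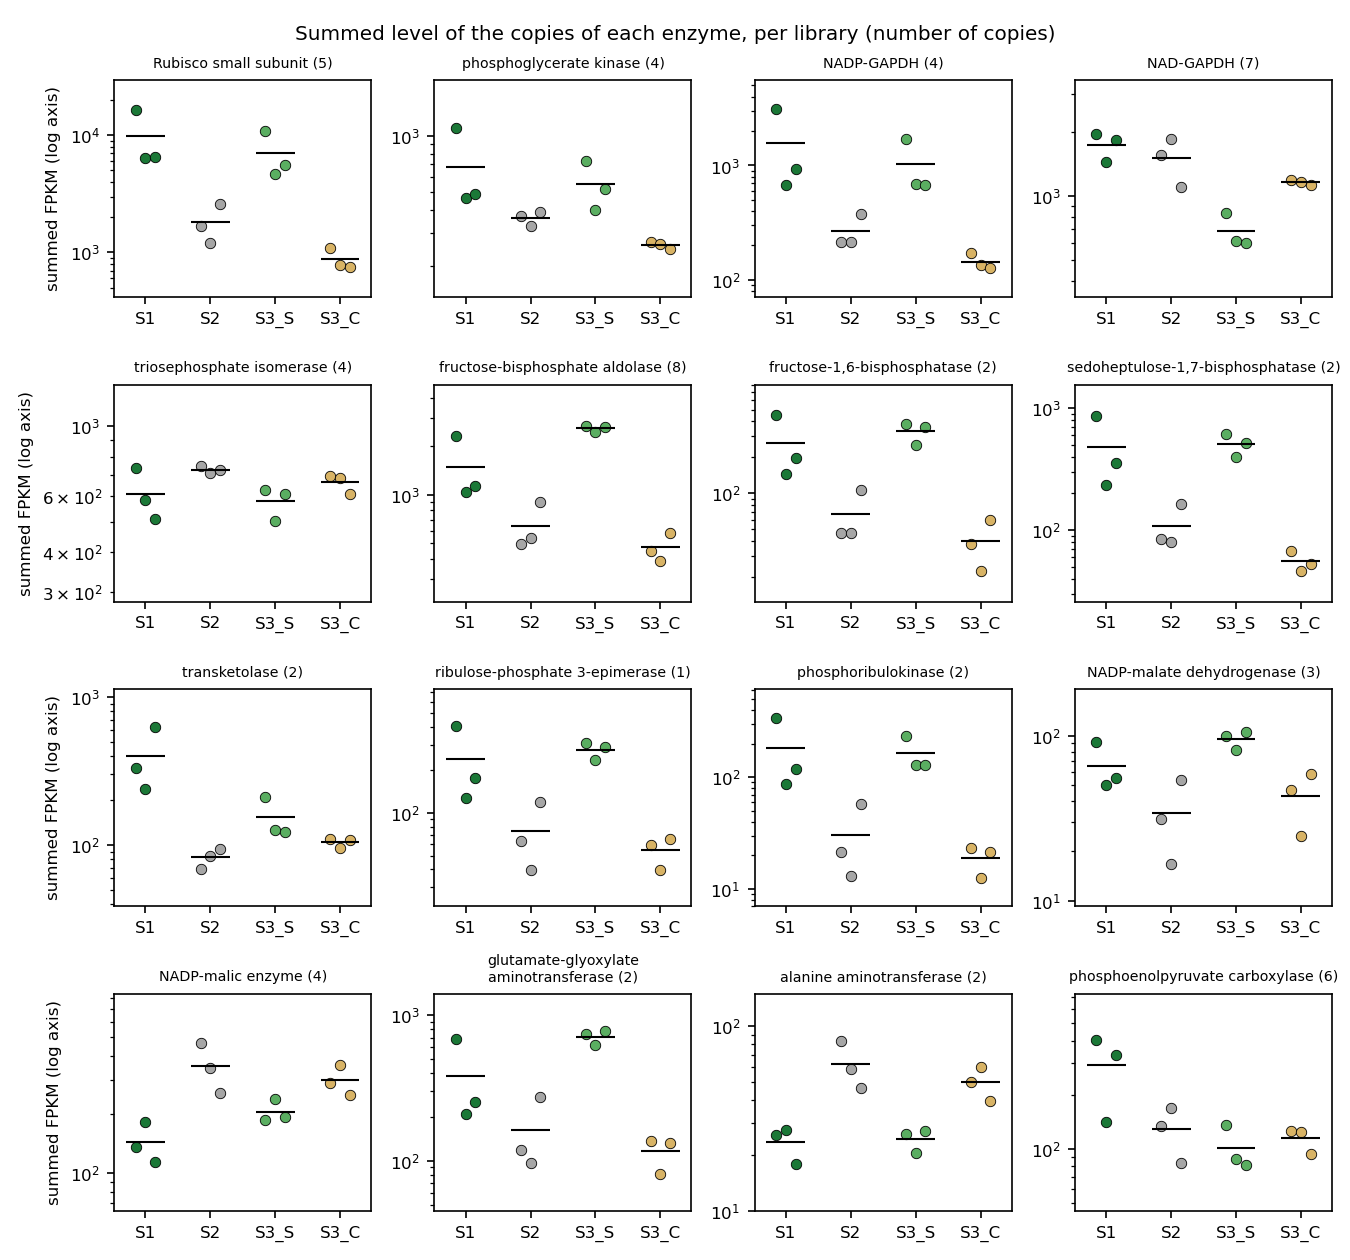
Summed FPKM (log axis) of all copies of 16 of the 21 enzymes in each library, with the number of copies in brackets and a line at the group mean. The enzymes of the Calvin cycle, from the small subunit of Rubisco to phosphoribulokinase, lie lowest in the whitened groups S2 and S3_C, except for NAD-GAPDH (lowest in S3_S) and triosephosphate isomerase, while NADP-malic enzyme and alanine aminotransferase lie higher in S2 than in S1.

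Among the four-carbon acid enzymes, those called higher in S3_S were a malate dehydrogenase of peroxisomes, a second NAD-dependent one, the NADP-dependent chloroplast enzyme and a pair of copies annotated as glutamate-glyoxylate or alanine aminotransferase. *Bo9g173890*, described as peroxisomal malate dehydrogenase (projected from *AT5G09660*), which serves photorespiration and fatty acid oxidation in *Arabidopsis*, was at 42.6, 9.72 and 20.6 FPKM in S3_S and 0.529, 0.841 and 0.504 FPKM in S3_C, a log2 fold change of 3.74 (SE 0.51, adjusted p = 0.0276). *Bo2g009460*, an NAD-malate dehydrogenase without a stated compartment, was at 528, 385 and 488 FPKM and 79.3, 53.3 and 96.3 FPKM, a log2 fold change of 2.63 (SE 0.31, adjusted p = 0.0238). Glutamate-glyoxylate aminotransferase makes glycine in photorespiration, the pathway that recovers the product of the oxygenase reaction of Rubisco. Its copy *Bo5g039420* was at 293, 183 and 219.6 FPKM against 44.1, 23.7 and 25.3 FPKM, a log2 fold change of 2.89 (SE 0.31, adjusted p = 0.0226), and *Bo8g073730* changed by 2.50 (SE 0.33, adjusted p = 0.0267). NADP-malate dehydrogenase exports reducing power from the chloroplast. *Bo2g028650* had a log2 fold change of 1.43 (SE 0.29, adjusted p = 0.0546) and *Bo3g018790* one of 1.05 (SE 0.34, adjusted p = 0.131). The call of *Bo3g018790* was lost without any of 4 single libraries (S3_S_1, S3_S_3, S3_C_1 or S3_C_2).

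Lower in the margin were copies of respiratory and amino acid enzymes. Aspartate aminotransferase *Bo2g018160* was at 14.0, 14.9 and 11.9 FPKM in S3_S and 38.5, 46.6 and 27.6 FPKM in S3_C, a log2 fold change of -1.38 (SE 0.22, adjusted p = 0.0362). Alanine aminotransferase *Bo5g023670* was at 14.96, 10.9 and 14.5 FPKM and 33.4, 44.4 and 24.3 FPKM, a log2 fold change of -1.25 (SE 0.25, adjusted p = 0.0537). These copies were lower in every margin library than in any center library. NADP-malic enzyme *Bo2g010580* had a log2 fold change of -1.04 (SE 0.28, adjusted p = 0.0938). NAD-malate dehydrogenase *Bo6g031300* had one of -1.01 (SE 0.41, adjusted p = 0.196), with overlapping libraries. After median-of-ratios scaling, *Bo2g010580*, *Bo6g031300* and *Bo5g023670* were not called. None of the other copies of malic enzyme, phosphoenolpyruvate carboxylase or phosphoenolpyruvate carboxykinase was called, the log2 fold changes of the most abundant being -0.61 for *Bo3g007180*, 0.42 for *Bo4g016200* and -0.64 for *Bo1g003330*. The most abundant malate dehydrogenase in the center, *Bo5g004570*, was at 223, 322 and 238 FPKM in S3_S and 379.9, 386 and 361 FPKM in S3_C (log2 fold change -0.54, not called). With *Bo2g009460* rising, NAD-malate dehydrogenase summed to 949.8 ± 88.3 FPKM in S3_S (mean ± SD of 3 libraries) and to 750.2 ± 63.3 FPKM in S3_C.

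Loss of green was also compared between stages, with leaves of the albino stage set against fully green leaves (S2 against S1). Of the 80 members tested, 19 were called lower in S2 and 5 higher, where 2.04% of all 42771 genes were called lower and 7.02% higher. No member had an adjusted p under 0.05, as did 1 gene in all (0.00234%), although 31 members had an unadjusted p under 0.05. The libraries did not overlap for 25 members lower in S2 and 12 higher, against 4.32% and 23.8% of all genes. The median log2 fold change of the members was -0.37, beside 0.21 over all genes tested. Of the 13 Calvin cycle copies, 9 were lower and none higher (median -2.18), as were 4 of 25 copies shared with glycolysis and 4 of the 5 tested that are shared with the pentose phosphate pathway. The four-carbon acid copies had 5 higher and 2 lower of 37. After median-of-ratios scaling, which moved the median of the expressed genes from 0.44 to 0.01, 25 members were lower and 2 higher, beside 4.27% and 2.46% of all genes. These counts rest on single libraries, with 5 lower without S2_1 (beside 1.49% of all genes), 8 without S2_2 (2.03%), 11 without S1_1 (2.48%) and 12 without S1_3 (1.53%). Of the 19 lower calls 5, and of the 5 higher calls 2, were made again whichever single library was left out. In the fit of all 12 libraries together, 14 members had an adjusted p under 0.05, as did 8.52% of all genes. *KAT1* was higher in every S2 than in any S1 library, as given above.

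The small subunit rows *Bo6g059930* and *Bo4g137140/Bo4g137150* had the largest falls. *Bo6g059930* was at 1665, 318 and 546 FPKM in S1 and 42.5, 84.5 and 59.6 FPKM in S2, a log2 fold change of -3.44 (SE 0.72, adjusted p = 0.109). The fused row changed by -2.89 (SE 0.99, adjusted p = 0.187), and the call was lost without S2_1 or S2_2. *Bo4g137200* was lower in every S2 than in any S1 library, with a log2 fold change of -2.17 (SE 4.65, adjusted p = 0.791), and missed the threshold. The same difference was called when the fit held only genes whose mean was 1 FPKM or more (limma, adjusted p = 0.119). It was also called in the linear model without a covariate, and under no other setting. Transketolase *Bo8g095470* fell by 2.71 on the log2 scale (SE 0.35, adjusted p = 0.0863), from 149, 173 and 247 FPKM in S1 to 27.2, 19.8 and 38.3 FPKM in S2. This was the smallest p of any member in this comparison. Phosphoribulokinase *Bo5g048540* went from 212, 66.5 and 91.2 FPKM to 14.8, 9.84 and 36.0 FPKM, a log2 fold change of -2.57 (SE 0.61, adjusted p = 0.120), and *GAPB*-type *Bo8g024290* changed by -2.39 (SE 0.74, adjusted p = 0.161). Sedoheptulose-1,7-bisphosphatase *Bo4g115460* and fructose-1,6-bisphosphatase *Bo8g083330* had log2 fold changes of -2.17 and -2.06. The calls of *Bo8g024290* and *Bo8g083330* were lost without S2_1 or S2_2. The aldolases that passed, *Bo3g149690* and *Bo1g002260*, were at -1.76 and -2.01. With a library left out, the call of *Bo3g149690* was made again only without S2_3. That of *Bo1g002260* was made again only without S2_3 or S1_2. In S2, the third library had the highest level of the small subunit and of the NADP-dependent dehydrogenase, and its antenna protein sum was 4561 FPKM against 1430.4 and 1102 FPKM in the other S2 libraries.

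The 5 members called higher at the albino stage are 6.25% of those tested, near the 7.02% of all genes. All 5 belong to the four-carbon acid enzymes. NADP-malic enzyme *Bo3g007180*, projected from *AT5G11670*, which encodes a cytosolic malic enzyme in *Arabidopsis*, was at 89.1, 119 and 68.1 FPKM in S1 and 386, 249 and 193 FPKM in S2, a log2 fold change of 1.55 (SE 0.44, adjusted p = 0.145). Alanine aminotransferase *Bo5g023670*, which links pyruvate and amino acid metabolism, was at 15.1, 14.9 and 11.1 FPKM and 65.4, 37.9 and 28.9 FPKM, a log2 fold change of 1.55 (SE 0.33, adjusted p = 0.111). Neither of these copies overlapped between the stages, and both kept the call after median-of-ratios scaling. The other calls were NADP-malic enzyme *Bo2g010580* (1.38), aspartate aminotransferase *Bo2g018160* (1.36) and NAD-malic enzyme *Bo9g002400* (1.26), a mitochondrial decarboxylase in plants, and none of these was called after that scaling. Phosphoenolpyruvate carboxylase *Bo4g016200*, the cytosolic enzyme that refills the citrate cycle, was at 187, 56.6 and 213 FPKM in S1 and 23.3, 72.9 and 22.7 FPKM in S2. It was called lower (log2 fold change -1.92, SE 0.69, adjusted p = 0.199) with overlapping libraries.

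The comparisons of margin with center and of S2 with S1 share no library, so their values can be set side by side. Of the 26 members higher in the green margin than in the center, 16 were also called lower in S2 than in S1, and the other 10 were not called there. Of the 7 members lower in the margin, 3 were called higher in S2 (*Bo5g023670*, *Bo2g010580* and *Bo2g018160*) and 4 were not called. No member was called with green and white exchanged. The share of all genes called in both comparisons was not counted, so this agreement is not shown to be particular to the members. Called lower in S2 were 3 members that were not called between margin and center, namely both transketolases and *Bo4g016200*, and 2 were called higher in S2 alone (*Bo3g007180* and *Bo9g002400*). An effect past the threshold in one comparison only is not thereby different, so the difference of both effects was tested in the fit of all 12 libraries. No member passed an adjusted p of 0.05, as did 0.0287% of all 45325 genes, and 9 members had an unadjusted p under 0.05.

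The member with the smallest p of that difference was transketolase *Bo8g095470*. It was at 149, 173 and 247 FPKM in S1, 27.2, 19.8 and 38.3 FPKM in S2, 102, 52.1 and 61.8 FPKM in S3_S and 71.1, 60.5 and 61.8 FPKM in S3_C. The stage S2 was lowest, and at the variegated stage margin and center overlapped. The log2 fold change of S3_S over S3_C less that of S1 over S2 was -2.61 (SE 0.44, adjusted p = 0.0943). The adjusted p was 0.0488 without S1_1, 0.0233 without S3_S_1 and 0.0572 to 0.202 without any other library. The fused small subunit row had the opposite sign, with 4.08 (SE 1.16, adjusted p = 0.237), as did aldolase *Bo3g149690* with 1.61 (SE 0.70, adjusted p = 0.428).

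**Figure D5:**
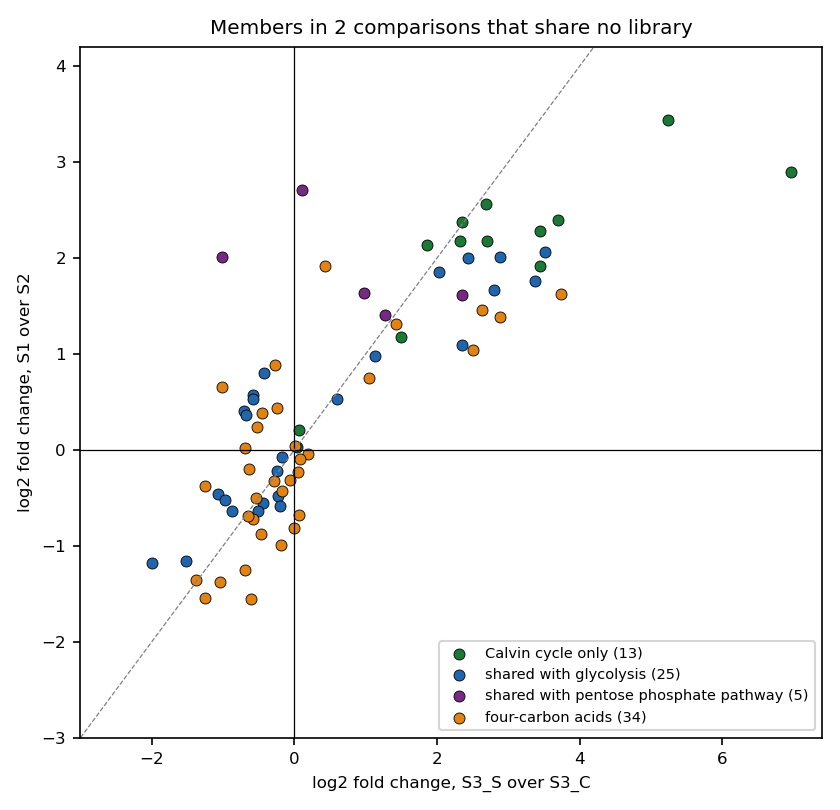
Log2 fold change of S3_S over S3_C (horizontal) against that of S1 over S2 (vertical) for the 77 members tested in both, coloured by role, with the line of equal change dashed. The Calvin cycle copies lie in the upper right except for the 2 small subunit copies near 0, and transketolase *Bo8g095470* lies at 0.10 and 2.71.

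The green tissues of both stages, S3_S and S1, were then compared, and these values share libraries with the comparisons above. Of 81 members tested, 2 were called higher in S3_S and 13 lower, against 12.5% and 6.72% of all 42391 genes. With adjusted p, 1 member was higher and 7 lower, against 10.4% and 4.47% of all genes. One of the 13 Calvin cycle copies was called, the small subunit copy *Bo6g059930*, at 1665, 318 and 546 FPKM in S1 and 416, 57.9 and 46.2 FPKM in S3_S (log2 fold change -2.66, SE 1.05, adjusted p = 0.132). The libraries overlapped, and the call was made again only without S3_S_1, so that leaving out any other library ended it. Of the calls in the lower direction, 7 belong to the glycolytic side, 4 NAD-dependent glyceraldehyde-3-phosphate dehydrogenases (*Bo3g057250*, *Bo6g080970*, *Bo5g021670* and *Bo2g095350*) and 3 aldolases (*Bo6g067020*, *Bo8g082370* and *Bo4g122950*). The calls of *Bo8g082370* and *Bo4g122950* were made again only without S1_1. *Bo6g080970* was at 13.6, 9.59 and 19.4 FPKM in S1 and 3.23, 2.93 and 4.42 FPKM in S3_S, a log2 fold change of -1.71 (SE 0.29, adjusted p = 0.0245). *Bo5g021670*, described as the plastid NAD-dependent form (projected from *AT1G16300*), was at 1.99, 10.4 and 8.28 FPKM and 0.952, 0.449 and 0.479 FPKM, a log2 fold change of -2.08 (SE 0.54, adjusted p = 0.0514). All 7 NAD-dependent copies were lower in S3_S than in S1 without overlap, as were 13.2% of all genes, and they summed to 683 ± 129 FPKM in S3_S (mean ± SD of 3 libraries) and to 1738 ± 258 FPKM in S1. The vein markers were also lower and *KAT1* higher in every S3_S than in any S1 library, as given above.

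Other members lower in S3_S than in S1 were NAD-malate dehydrogenase *Bo6g031300*, at 103, 123 and 117 FPKM in S1 and 41.2, 21.5 and 17.3 FPKM in S3_S (log2 fold change -2.15, SE 0.34, adjusted p = 0.0229), its relative *Bo6g029400* (-1.07, lost without S3_S_2 or S3_S_3), cytosolic NADP-malic enzyme *Bo7g095660* (log2 fold change -1.96, SE 0.41, adjusted p = 0.0342), phosphoenolpyruvate carboxylase *Bo4g016200* (-1.77, lost without any of 4 single libraries) and transketolase *Bo8g095470* (log2 fold change -1.41, SE 0.37, adjusted p = 0.0515). Aspartate aminotransferase *Bo9g028670*, which transfers amino groups between aspartate and oxoglutarate, was higher, at 42.6, 31.7 and 27.5 FPKM in S1 and 87.4, 112 and 71.5 FPKM in S3_S, a log2 fold change of 1.38 (SE 0.27, adjusted p = 0.0286). The white center held 101, 114 and 52.7 FPKM. Another copy of that enzyme, *Bo3g007080*, was higher as well (log2 fold change 1.23, SE 0.38, adjusted p = 0.0772), a call lost without S3_S_3 or S1_3. The count of higher calls rests on S1_1. Without it, 13 members were called higher, beside 13.4% of all genes, among them the 4 aldolases that were higher in the margin than in the center, phosphoribulokinase *Bo8g030240* (1.45), sedoheptulose-1,7-bisphosphatase *Bo8g090220* (1.03) and both copies of the glutamate-glyoxylate or alanine aminotransferase. Without S1_1 and S3_S_1 together, a setting chosen after seeing the data, 12 were called higher, beside 16.0% of all genes. In both settings the share of the 81 members was near that of all genes.

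Aldolase and Rubisco differed between the green tissues in ratios that no scaling can change. The summed small subunit level over the summed antenna protein level was 2.00, 1.74 and 1.598 in S1 and 0.978, 0.479 and 0.499 in S3_S, lower in every margin library. It was 1.17, 1.10 and 0.570 in S2 and 0.540, 0.427 and 0.292 in S3_C, so a low ratio was not particular to the margin. The antenna sum itself was 8215, 3674 and 4072 FPKM in S1 and 11052, 9770 and 11080 FPKM in S3_S. A lower ratio is therefore not by itself a lower level of the enzyme. The summed aldolase level over the antenna level was 0.282, 0.283 and 0.279 in S1 and 0.243, 0.253 and 0.238 in S3_S, lower in every margin library by a smaller factor. In FPKM and not as a ratio, aldolase was at 2319, 1040.1 and 1135 FPKM in S1 and 2682, 2470.3 and 2642 FPKM in S3_S. The small subunit was at 16421, 6384 and 6508 FPKM in S1 and 10807, 4679.5 and 5534 FPKM in S3_S, with overlap.

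Between the whitened tissues, S3_C and S2, 4 of 77 members were called lower in S3_C and 1 higher, against 0.678% and 1.41% of all 43059 genes. No member had an adjusted p under 0.05, as did 2 genes in all (0.00464%). With the replicate number as a block, 5 were lower and 1 higher, against 1.35% and 2.22% of all genes. The 4 lower calls without the block were all Calvin cycle copies. The fused row *Bo4g137140/Bo4g137150* went from 131, 116 and 227 FPKM in S2 to 8.18, 7.19 and 2.24 FPKM in S3_C (log2 fold change -4.60, SE 0.48, adjusted p = 0.277), and *Bo6g059930* from 42.5, 84.5 and 59.6 FPKM to 2.17, 3.25 and 0.589 FPKM (log2 fold change -4.45, SE 0.44, adjusted p = 0.236). *Bo8g024290* had a log2 fold change of -1.55 and *Bo8g090220* one of -1.06, the latter lost without S3_C_2, S3_C_3 or S2_3. S2 leaves included their green margin, so a lower level in S3_C and the absence of that margin cannot be told apart. Higher in S3_C was transketolase *Bo8g095470* (log2 fold change 1.20, SE 0.26, adjusted p = 0.631), a call lost without S2_2. Without S2_3, 9 members were called lower, beside 2.70% of all genes, against 0.678% of all genes with every library.

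Over the 4 groups, the mean was highest in S1 for 34 members, in S2 for 20, in S3_S for 19 and in S3_C for 8. The share of all genes by highest group was not counted. For the 13 Calvin cycle copies it was highest in S1 for 10 and in S3_S for 3, and in neither whitened group for any. The S1 means lean on S1_1. The summed Calvin cycle level was 20724, 7377 and 7915 FPKM in S1 and 13356, 5894 and 6861 FPKM in S3_S, with overlap. These means therefore do not rank S1 above S3_S. The four-carbon acid copies were spread, with 10 highest in S1, 11 in S2, 10 in S3_S and 6 in S3_C. The ratio of the summed Calvin cycle level to the summed four-carbon acid level was 4.14 to 7.53 in S1, 0.849 to 1.62 in S2, 2.54 to 5.29 in S3_S and 0.519 to 0.735 in S3_C.

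Other pathways are given beside the carbon fixation map, and the difference between the lists was not tested. Over all genes tested, 2.67% were called higher and 5.20% lower in S3_S than in S3_C. In S2 against S1 it was 7.02% higher and 2.04% lower. Glycolysis and gluconeogenesis shares the most rows, 29 (35.8% of the members and 20.1% of that pathway). Of its 141 genes tested, 9 were called higher in S3_S than in S3_C and 18 lower (median -0.33), and of 143 tested between S2 and S1, 14 were higher and 6 lower. Shared rows count in both lists. The members shared with glycolysis made 8 of the 9 higher and 3 of the 18 lower calls between margin and center. Between S2 and S1 they made 4 of the 6 lower calls and 0 of the higher. The pentose phosphate pathway shares 16 rows (19.8% of the members and 28.1% of that pathway), with 7 of 56 genes higher and 5 lower in S3_S than in S3_C and 2 higher and 7 lower in S2 than in S1. All 7 genes higher in S3_S and all 7 lower in S2 were members counted above. They were copies of aldolase, fructose-1,6-bisphosphatase, the epimerase, ribose-5-phosphate isomerase and, in S2, transketolase. Of the 36 genes tested in the pathway of photosynthesis, which holds the photosystem subunits, 27 were called higher in S3_S than in S3_C and none lower, as were 15 of the 17 antenna protein genes. The photosynthesis and antenna lists share no row with the members. Of 83 genes of glyoxylate and dicarboxylate metabolism, 25 were higher and 8 lower, and 15 rows are common to both lists (18.5% of the members and 17.9% of that pathway). Between S2 and S1, 13 photosynthesis genes and 5 antenna genes were called lower and none higher. Between S3_S and S1, the antenna genes had a median log2 fold change of 0.98, beside -0.09 for the carbon fixation members. Of the 17 antenna genes, 3 were called higher (17.6%) and none lower, beside 12.5% and 6.72% of all genes.

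The proteins that regulate or assemble the enzymes of the cycle were looked for by their *Arabidopsis* loci, and 5 of 19 were matched to a row. The catalytic subunit of ferredoxin-thioredoxin reductase, *Bo4g139550*, which passes electrons from photosystem I to the thioredoxins that activate the cycle, was at 361, 278 and 319 FPKM in S3_S and 133.8, 95.6 and 139.7 FPKM in S3_C (log2 fold change 1.38, SE 0.28, adjusted p = 0.0542). The other 4 were not called between margin and center. *TRXF2*, a thioredoxin f that reduces the bisphosphatases, was at 16.2 to 20.8 FPKM in S1, 14.3, 4.31 and 10.7 FPKM in S2, 8.70, 9.26 and 7.10 FPKM in S3_S and 14.2, 15.9 and 8.43 FPKM in S3_C. S3_S over S1 gave a log2 fold change of -1.10 (SE 0.18, adjusted p = 0.0237) and S2 over S1 one of -1.02 (SE 0.41, adjusted p = 0.236). *CP12-3*, a member of the family that binds phosphoribulokinase and glyceraldehyde-3-phosphate dehydrogenase into an inactive complex, was listed at 0 in the 3 S1 libraries, at 2.39, 0 and 3.85 FPKM in S2, 1.45, 2.43 and 4.02 FPKM in S3_S and 3.77, 3.26 and 5.72 FPKM in S3_C, the group with the highest mean. *CP12-2* was at 36.5 to 75.5 FPKM in S1 and 51.3 to 139 FPKM in S3_S and was called in none of the comparisons.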

How the data were processed

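RNA was sequenced from 12 leaf libraries, 3 in each of 4 groups, which were taken from the labels. Per the labels and the methods of the study, the authors aligned the reads with HISAT (HISAT2 2.0) against *B. oleracea* (Ensembl Plants, release 38), allowing 2 mismatches and 20 alignments per read, assembled and merged transcripts with StringTie 1.3.0, and deposited FPKM per gene. No between-library scaling beyond FPKM is stated there. Reads that map to several copies of a family can move level between them. All 12 value columns were used.

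Members were the rows with KEGG 00710. The members, gene lists and tests were chosen with earlier results of these data known. limma 3.58.1 (lmFit, eBayes with a trend) in R 4.3.3 was run on log2(FPKM + 1) over every gene detected (FPKM over 0) in any of the 6 libraries of a comparison, with Benjamini-Hochberg adjustment over all of them. The script was tested on simulated data. Single comparisons of 3 libraries against 3 cannot reach an exact permutation p under 0.1. The difference of the green to white effects was a contrast over all 12 libraries. Summaries used Python 3.11.15, numpy 2.4.6 and pandas 2.3.3, and figures matplotlib 3.10.9.

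Named members had the highest mean FPKM of their enzyme and compartment, were among the 10 largest changes in either direction of those called between S3_S and S3_C or the 5 largest between S2 and S1, or had a mean of at least 100 FPKM. Others named were chosen after their values were seen.

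Equal replicate numbers were taken to pair libraries where the correlation of deviations from the group means was over 0.1 in every pair. Over all genes tested this held for S3_C against S2 (0.206 to 0.474) but not for S3_S against S3_C (0.0968 to 0.421), where it did hold over genes averaging 1 FPKM or more, so the blocked counts of both are given. The SE and p of single members come from fits without the block in every comparison. For S3_C against S2 they thus leave out a pairing that this rule takes to hold. The labels do not say that a number marks a shared plant. RefSeq gene names of the reference table matched 0 members, and no sequence was used here. A matched gene of the accessory list is not reported here.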

Additional observations from a re-analysis of the deposited data

How the results depend on the processing

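Results were recomputed with each library left out in turn, with all 12 libraries in one fit, with the replicate block, after quantile normalization or median-of-ratios scaling, with a pseudocount of 0.1, for genes averaging 1 FPKM or more, and in linear models without and with the library-size covariate. Counts of calls stayed within 1.5 times and medians within the spread of replicates, apart from the following. With median-of-ratios scaling, 3 members were lower in S3_S than in S3_C, 2 higher in S2 than in S1 and 1 higher in S3_S than in S1, and the median was -0.84 for S2 against S1 and -0.50 for S3_C against S2. With quantile normalization, 4 were higher in S3_S than in S1. With the library-size covariate, 1 member was higher and 3 lower in S3_S than in S3_C. In S2 against S1, 2 were higher and 2 lower. In S3_S against S1, 0 were higher and 2 lower, and in S3_C against S2, 0 were higher. Over these comparisons, that model called 0.390 to 1.40% of all genes higher and 0.604 to 1.06% lower. That model also reversed *Bo3g018790* (-0.40) and *Bo2g010580* (0.17) between S3_S and S3_C, *Bo4g016200* (2.87) and *Bo4g104820* (1.66) between S2 and S1, and *Bo4g016200* (0.57) between S3_S and S1. The cause was not tested. The covariate did not overlap between the groups of any comparison, so it and the groups cannot be told apart.

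With 1 library left out, 24 to 27 members were higher and 4 to 10 lower in S3_S than in S3_C (4 without S3_S_3). Of all genes, 2.12 to 3.22% were higher and 3.75 to 7.06% lower in these fits. Between S2 and S1, 2 to 7 were higher and 5 to 19 lower, with 3 higher without S2_1 or S1_1 and 2 without S1_3. The shares of all genes there were 4.13 to 10.3% higher and 1.49 to 2.48% lower. Between S3_S and S1, 1 to 13 were higher and 8 to 15 lower, with 1 higher without S3_S_3 or S1_3 and 8 lower without S3_S_2 or S3_S_3. Here 9.51 to 14.7% of all genes were higher and 4.32 to 8.58% lower. Between S3_C and S2, 0 to 1 were higher and 3 to 9 lower, with 0 higher without S2_2, beside 0.643 to 4.86% and 0.397 to 2.70% of all genes. The difference of the effects had 0 to 1 members with an adjusted p under 0.05. Leaving out both S1_1 and S3_S_1 gave 12 higher and 17 lower in S3_S than in S1, beside 16.0% and 9.55% of all genes, a setting chosen after seeing the data. With the replicate block, 26 members were higher and 8 lower in S3_S than in S3_C, beside 2.99% and 5.86% of all genes. Members with an adjusted p under 0.05 went from 21 to 14, where all genes went from 1598 to 394. The same-number correlation there was 0.0968 to 0.421 over all genes and 0.113 to 0.467 over those averaging 1 FPKM or more, so whether the numbers pair these libraries depends on the genes used, and the fit without the block was kept. For S2 and S1 the same-number correlation was -0.355 to 0.182, and the block gave 5 higher and 15 lower, beside 6.47% and 1.84% of all genes. For S3_S and S1 it was -0.175 to 0.0208, and the block gave 2 higher and 13 lower, beside 11.9% and 5.99%. No member had an adjusted p under 0.05 in that blocked fit, against 8 without the block. Nor did any other gene, against 6308 of all genes without the block. FPKM hold no counts, so depth limits the lowest members: the 11 with a mean under 1 FPKM gave no call at the pseudocount of 1, and 3 of them (*Bo2g015430*, *Bo5g127590* and *Bo2g055370*) were called in a comparison at a pseudocount of 0.1. Members with an adjusted p under 0.05 went from 21 to 4 between S3_S and S3_C in the linear model without covariate, where all genes went from 1598 to 466. Between S2 and S1 they went from 0 to 14 with all 12 libraries, where all genes went from 1 to 3643. Between S3_S and S1 they were 8 in the main fit, beside 6308 of all 42391 genes. For genes averaging 1 FPKM or more they were 17 there, beside 8433 of 23893 genes. With all 12 libraries they were 13, beside 8123 genes, and in the linear model without covariate 0, beside 267 genes. With the covariate there were 0 in each.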
